A study of Mus musculus with 4 samples.

Results

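Transcripts of 9 genes that store, move and sense iron were followed in bone marrow neutrophils of wild-type mice. The genes were Fth1, Ftl1, Slc11a1, Slc11a2, Slc40a1, Tfrc, Ncoa4, Aco1 and Ireb2, and each had its own row among the 54532 genes of the count table. They were chosen by name and function with their differences between the groups already known, so their values between the groups are a description and support no claim of their own. RNA was sequenced from 4 libraries of bone marrow derived neutrophils of WT mice, 2 given DMSO, a solvent, and 2 given Aβ40, a fragment of the amyloid precursor protein. Aβ40 was given at 20 µg/ml for 4 h, a dose and time that come from the series' design text, which gives neither for DMSO. The study asked how Aβ40 makes neutrophils release extracellular traps. The labels give no age, sex or number of mice and do not say that replicates were separate animals or cultures. Every p-value therefore measures only the spread between these libraries, which may be technical.

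Iron in a cell is held inside ferritin, a hollow shell of heavy chains (Fth1), which oxidise the metal, and light chains (Ftl1), which help it to settle as mineral. It enters on transferrin through the transferrin receptor (Tfrc), crosses the endosome membrane through DMT1 (Slc11a2), is pumped out of phagosomes by NRAMP1 (Slc11a1) and leaves the cell through ferroportin (Slc40a1). NCOA4 carries ferritin to the lysosome, where its iron is freed. The iron regulatory proteins IRP1 (Aco1) and IRP2 (Ireb2) bind hairpins, called iron-responsive elements, in messenger RNAs when iron is scarce: in a 5′ UTR this blocks translation, and in the 3′ UTR of Tfrc it protects the transcript from decay. Counts of RNA can show a change in stability, but not one in translation.

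Hairpins of this kind were looked for, in 1 strict form, in the mm10 transcripts of GENCODE M21. The letters searched were a C, 5 bases, CAGTG with 1 further base, and 5 bases that pair with the first 5, allowing G-T pairs, on the sense strand of mature transcripts. Of the 9 genes, 4 held a match in a UTR, against 160 of all 21877 protein-coding genes searched (0.731%, whatever the length of their UTRs). The sites are shown 5′ to 3′ in DNA letters, with the loop of 6 bases in capitals.
Fth1, 5′ UTR, chr19:9982732-9982761, + strand: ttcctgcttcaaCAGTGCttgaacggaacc
Ftl1, 5′ UTR, chr7:45459778-45459807, - strand: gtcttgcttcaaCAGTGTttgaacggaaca
Slc40a1, 5′ UTR, chr1:45925464-45925493, - strand: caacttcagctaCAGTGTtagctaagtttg
Tfrc, 3′ UTR, chr16:32631219-32631248, + strand: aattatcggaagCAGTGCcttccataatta
Tfrc, 3′ UTR, chr16:32631598-32631627, + strand: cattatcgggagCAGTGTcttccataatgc
Tfrc, 3′ UTR, chr16:32631663-32631692, + strand: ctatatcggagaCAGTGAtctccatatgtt
Tfrc, 3′ UTR, chr16:32631710-32631739, + strand: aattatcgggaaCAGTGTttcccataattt
The sites of the 2 ferritin chains were identical at 26 of 30 positions. Tfrc held 4 sites, all in the 3′ UTR of 1 of its 3 protein-coding transcripts. The Slc40a1 site lay in 1 of 4 transcripts of that gene. The counts are summed over a gene's transcripts, so forms with and without a site were not told apart. These letters were not found in the UTRs of Slc11a1, Slc11a2, Ncoa4, Aco1 and Ireb2. The search allowed no unpaired base among the 5 pairs. Elements of another form, in these genes or in Tfrc, would have been missed.

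The libraries held between 17212264 and 19524125 counts. Levels are given as CPM, each count scaled to library size by TMM, and a single count was worth 0.0523 to 0.0585 CPM. All 12 markers of neutrophils were detected, with a summed level of 90992 CPM in DMSO 2 and between 127039 and 134617 CPM in the other libraries. DMSO 2 therefore stood apart in this sum, which its most abundant genes led. S100a9 was at 44610.5 CPM in DMSO 1 and 27538.9 CPM in DMSO 2. Markers did not all go this way: Csf3r was at 567 and 755 CPM and Mmp8 at 444 and 616 CPM. The sum is thus no measure of the share of neutrophils. Over all genes the DMSO pair differed more than the Aβ40 pair. The median gene was 1.26-fold higher in one DMSO library than in the other, and 1.17-fold between the Aβ40 libraries. Markers of other cells were present too. All 10 B cell markers had a positive log2 fold change and 6 passed the test, with a summed level of 537 and 623 CPM with DMSO and 1223 and 1217 CPM with Aβ40. All 8 eosinophil markers were positive and 1 passed, with sums of 1623 and 1365 CPM against 3566 and 3611 CPM. Among T and NK cell markers 10 of 10 tested were positive and 1 passed, with sums of 67.2 and 64.9 CPM against 100.5 and 106.9 CPM. Macrophage markers summed to 609 and 636 CPM with DMSO and 691 and 654 CPM with Aβ40 (8 of 10 positive, 0 called), and monocyte markers to 2777 and 2670 CPM against 3662 and 3154 CPM (4 of 6 positive, 0 called). No marker was at 0 in all libraries, and Siglec1 and Mertk of macrophages, Epor and Car1 of erythroid cells and Ncr1 of NK cells stayed under 1 CPM in each. The part of other cells in the levels below was not tested. In such bulk libraries, fewer cells of a type and less RNA per cell cannot be told apart.

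Ferritin transcripts were among the most abundant in these cells and were lower in both Aβ40 libraries than in both DMSO libraries, while the receptor Tfrc and the regulators Aco1 and Ireb2 had overlapping groups. Transcripts of the phagosomal pump Slc11a1 and of the exporter Slc40a1 were also lower in both Aβ40 libraries. None of the 9 genes passed the test over all 13479 genes (edgeR quasi-likelihood, Benjamini-Hochberg adjusted p under 0.05), in which 0.126% of genes were called higher and 0% lower. At an unadjusted p under 0.05, 3 of the 9 were lower and 0 higher, where 5.72% of all genes were lower and 6.51% higher. DESeq2 called 1 of the 9, Fth1, lower (Benjamini-Hochberg adjusted p = 0.0440), where it called 0.292% of the 11649 genes with an adjusted p lower and 0.893% higher. The groups did not overlap for 4 of the 9, all lower with Aβ40, and for 21.9% of all genes lower and 23.2% higher. The median log2 fold change of the 9 genes was -0.26, with 5 negative and 4 positive, and that of all genes tested was 0.01. It was 0.06 without DMSO 2. Since the genes were chosen with these differences known, nothing is read from the counts.

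Fth1 (ENSMUSG00000024661, mm10 chromosome 19, 9982703 to 9985092), the heavy chain, was at 11747 CPM in DMSO 1, 7210 CPM in DMSO 2, 4636 CPM in Aβ40 1 and 5776 CPM in Aβ40 2. DMSO 1 was far above the rest, and the groups did not overlap. By mean level it ranked 7 among all genes tested, and it took between 0.448% and 1.12% of all counts of a library. DMSO libraries averaged 9479 ± 3208 CPM and Aβ40 libraries 5206 ± 806 CPM (SD over 2 libraries), 1.82-fold higher with DMSO. On the log2 scale the difference was -0.86 (SE 0.28, 95% confidence interval from -1.49 to -0.23; edgeR quasi-likelihood, Benjamini-Hochberg adjusted p = 0.33). Its size rested on DMSO 1: the log2 fold change was -0.47 without that library and -1.19 without DMSO 2 in the same edgeR fit. Leaving out a library leaves 1 in its group, so for such fits only the size of the difference is given by gene. The DMSO libraries differed from each other 1.63-fold for this gene, more than the 1.26-fold of the median gene. Summed markers of erythroid cells were highest in DMSO 1 too, at 5060 CPM against 2126 CPM in DMSO 2 and 3487 and 3652 CPM with Aβ40 (3 of 13 tested were positive, 0 called), and their part in its level was not tested.

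Ftl1 (ENSMUSG00000050708, chromosome 7, 45457944 to 45459884), the light chain, was at 2601 and 2876 CPM in the DMSO libraries and at 1698 and 1917 CPM in the Aβ40 libraries. Here both groups were tight and stood apart, and DMSO 2, not DMSO 1, was the highest. Its log2 fold change was -0.60 (SE 0.20; edgeR quasi-likelihood, adjusted p = 0.334), or 1.52-fold higher with DMSO. It kept about this size when a library was left out. It was -0.67 without DMSO 1, -0.54 without DMSO 2, -0.52 without Aβ40 1 and -0.71 without Aβ40 2. The 3 pseudogene rows named for this chain held between 1.71% and 1.99% of its counts, a share that differed little between libraries. The 2 rows named for heavy-chain pseudogenes held 0 to 3 counts. Adding these rows changed neither call.

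Both ferritin genes together took 1.37% and 1.09% of counts in DMSO 1 and 2 and 0.612% and 0.767% in Aβ40 1 and 2. Per gene length, in the authors' deposited FPKM, Fth1 exceeded Ftl1 by 6.99-fold and 3.88-fold in DMSO 1 and 2 and by 4.22-fold and 4.66-fold in Aβ40 1 and 2. The mix of chains in DMSO 2 was thus like that with Aβ40, and DMSO 1 alone held a larger share of heavy-chain transcripts, 87.5% of the ferritin FPKM against 79.5% to 82.3%. The groups overlapped in this ratio.

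**Figure D1:**
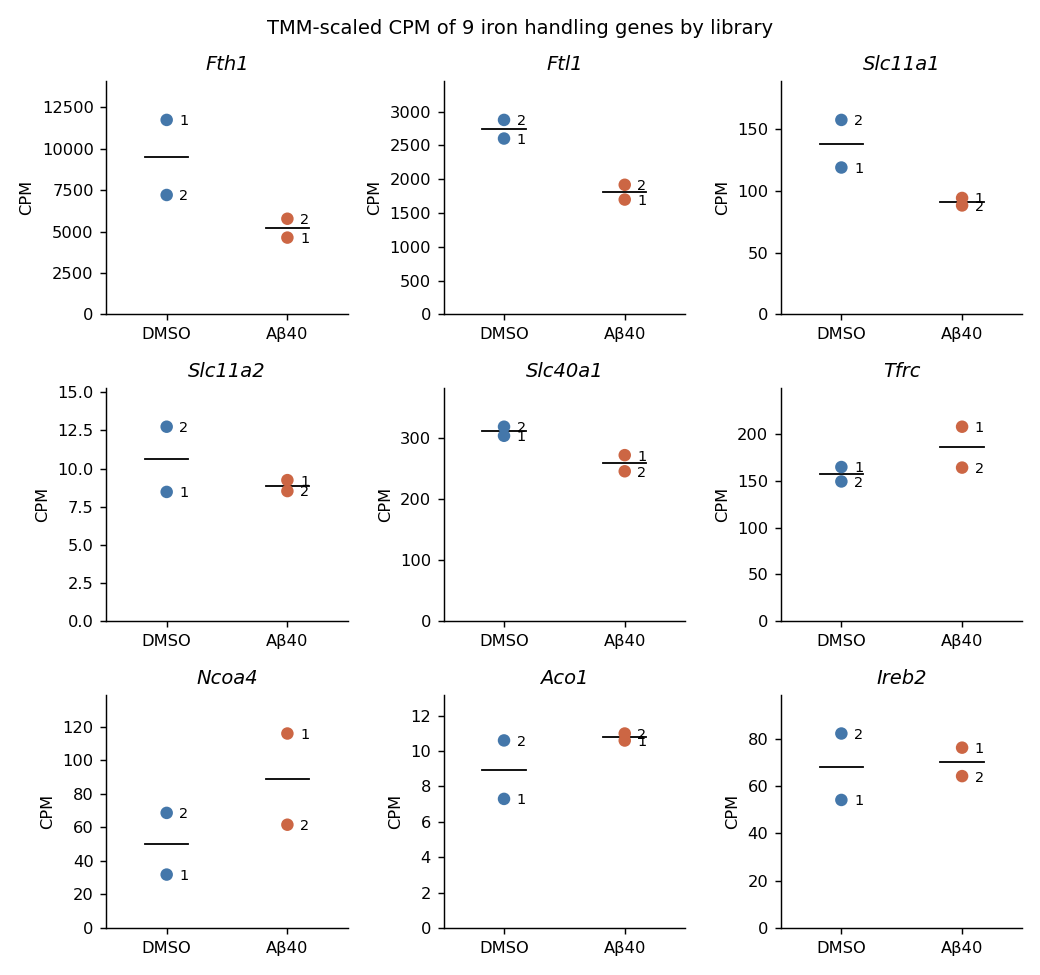
TMM-scaled CPM of each gene (y axis, from 0) by group (x axis); points are libraries, numbered by replicate, and the line is the mean of 2. Fth1, Ftl1, Slc11a1 and Slc40a1 have both Aβ40 points below both DMSO points, and the other 5 genes overlap.

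Ncoa4 (ENSMUSG00000056234, chromosome 14, 32159865 to 32179855), the cargo receptor that delivers ferritin to lysosomes, was at 31.8 and 68.7 CPM in DMSO 1 and 2 and at 116 and 61.6 CPM in Aβ40 1 and 2. DMSO 1 was the lowest and Aβ40 1 the highest, while the remaining pair lay close together and on the opposite sides of the group difference. Its log2 fold change of 0.82 had the widest error of the 9 genes (SE 0.38; 95% confidence interval from -0.03 to 1.68; edgeR quasi-likelihood, adjusted p = 0.423). The log2 fold change was 1.47 without DMSO 2, 0.37 without DMSO 1 and 0.29 without Aβ40 1. Ncoa4 was lowest where Fth1 was highest, in DMSO 1, and highest where Fth1 was lowest, in Aβ40 1. Between DMSO 2 and Aβ40 2, however, both genes were higher in DMSO 2, Fth1 at 7210 against 5776 CPM. This comparison was chosen after the values were seen.

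Slc11a1 (ENSMUSG00000026177, chromosome 1, 74375195 to 74386062) encodes NRAMP1, which withholds iron and manganese from ingested microbes. Its levels were 119 and 157 CPM in DMSO 1 and 2 and 94.2 and 88.2 CPM in Aβ40 1 and 2, so the Aβ40 libraries were close together and below both DMSO libraries. The log2 fold change was -0.60 (SE 0.19; edgeR quasi-likelihood, adjusted p = 0.327). It was -0.39 without DMSO 2, the higher of the pair, and -0.79 without DMSO 1. Its relative Slc11a2 (ENSMUSG00000023030, chromosome 15, 100387898 to 100425072), the DMT1 importer, was scarce, with 158, 237, 158 and 163 counts in DMSO 1 and 2 and Aβ40 1 and 2. DMSO 2 was high and the other 3 libraries were alike, between 8.47 and 9.24 CPM. Its log2 fold change of -0.26 (SE 0.28) turned to 0.06 when DMSO 2 was left out. Per length, Slc11a1 exceeded Slc11a2 by 24.1-fold and 21.2-fold in the DMSO libraries and by 17.5-fold and 17.7-fold with Aβ40, and the groups did not overlap in this ratio, which is independent of library scaling.

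Slc40a1 (ENSMUSG00000025993, chromosome 1, 45908068 to 45926523), ferroportin, the iron exporter, was at 303 and 318 CPM in the DMSO pair and at 272 and 245 CPM in the Aβ40 pair. Both groups were tight and did not overlap, but the difference was small, at -0.27 on the log2 scale (SE 0.17; 95% confidence interval from -0.66 to 0.12; edgeR quasi-likelihood, adjusted p = 0.562). It lay between -0.34 and -0.21 when any 1 library was left out. Ferroportin is also a gene of macrophages that recycle iron, whose markers are given above and had a median log2 fold change of 0.52. The part of those cells in its level was not tested.

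Tfrc (ENSMUSG00000022797, chromosome 16, 32608920 to 32632794), the gate for transferrin iron, was at 165 and 150 CPM in DMSO 1 and 2 and at 208 and 164 CPM in Aβ40 1 and 2. One Aβ40 library was above the rest and the other lay among the DMSO values. The log2 fold change was 0.24 (SE 0.19; 95% confidence interval from -0.18 to 0.66) and was 0.06 without Aβ40 1. The ratio of Tfrc to Fth1 transcripts per length was 0.00197 and 0.00290 in DMSO 1 and 2 and 0.00629 and 0.00399 in Aβ40 1 and 2. In that ratio the groups did not overlap, with a mean log2 difference of 1.07, beside log2 fold changes of 0.24 and -0.86 for the genes alone. No ratio was tested, since an exact 2-sided permutation test of 2 libraries against 2 cannot give a p below 0.333. A lack of overlap in any ratio given here is a description, and its share over other pairs of genes was not computed.

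Transcripts of both iron regulatory proteins had overlapping groups. Ireb2 (ENSMUSG00000032293, chromosome 9, 54863789 to 54912530), IRP2, which is removed by the ubiquitin ligase subunit FBXL5 when iron is ample, was at 54.2, 82.3, 76.3 and 64.3 CPM in DMSO 1 and 2 and Aβ40 1 and 2. Both extremes were DMSO libraries. The log2 fold change was 0.04 (SE 0.22; 95% confidence interval from -0.47 to 0.55), an interval that still allows a difference in either direction. Aco1 (ENSMUSG00000028405, chromosome 4, 40143081 to 40198338), IRP1, which is a cytosolic aconitase when it carries an iron-sulfur cluster, was at 7.29 and 10.6 CPM with DMSO and 10.6 and 11.0 CPM with Aβ40. DMSO 1 was low and the other 3 libraries were alike, and the log2 fold change of 0.27 (SE 0.27) was 0.02 without DMSO 1. Per length, Ireb2 exceeded Aco1 by 3.53-fold and 3.69-fold with DMSO and by 3.42-fold and 2.78-fold with Aβ40. The groups were only just without overlap, at 3.42-fold in Aβ40 1 and 3.53-fold in DMSO 1. Aco1 had 136 to 210 counts a library, so nothing is read from this gap.

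**Figure D2:**
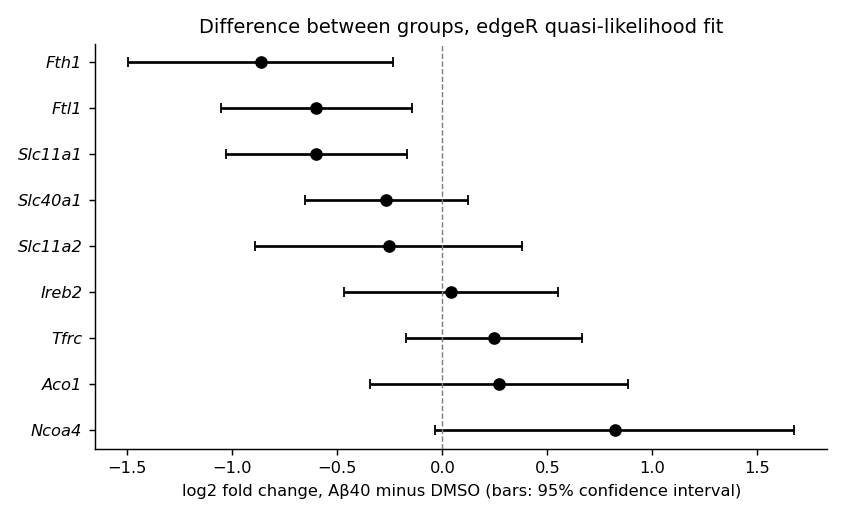
Log2 fold change of each gene, Aβ40 minus DMSO (x axis), with its 95% confidence interval from the edgeR fit. The intervals of Fth1, Ftl1 and Slc11a1 lie below 0 before any adjustment for the number of genes, and those of the other 6 include 0.

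On the scale of FPKM, which sets genes side by side per length, the 9 genes fell into levels far apart. The mean over the 4 libraries was 8413 FPKM for Fth1 and 1682 FPKM for Ftl1. Next came Slc40a1 with 31.3, Slc11a1 with 30.7 and Tfrc with 27.5 FPKM, and these traded places from library to library, so their order is within their spread. With DMSO, for example, Slc11a1 was at 37.1 ± 7.31 FPKM and Tfrc at 25.3 ± 1.77 FPKM, whereas with Aβ40 they were at 24.3 ± 1.04 and 29.7 ± 4.82 FPKM (SD, n = 2 each). Ncoa4 and Ireb2 also traded places, with means of 7.34 and 7.24 FPKM. Aco1 and then Slc11a2 were the lowest in each of the 4 libraries, with means of 2.17 and 1.52 FPKM.

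**Figure D3:**
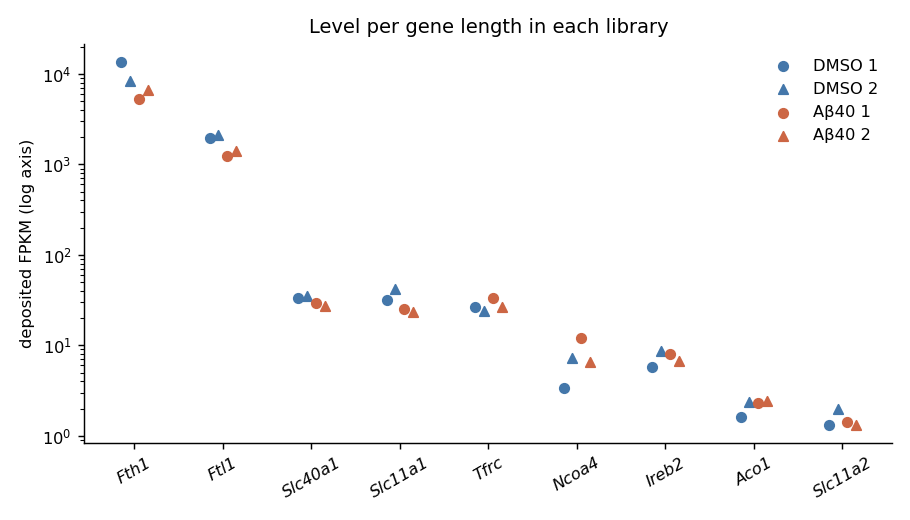
Deposited FPKM of each gene in each library (y axis, log scale), ordered by mean level; circles are replicate 1, triangles replicate 2, blue DMSO and orange Aβ40. The ferritin genes stand far above the other 7, and Slc40a1, Slc11a1 and Tfrc share one level.

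**Figure D4:**
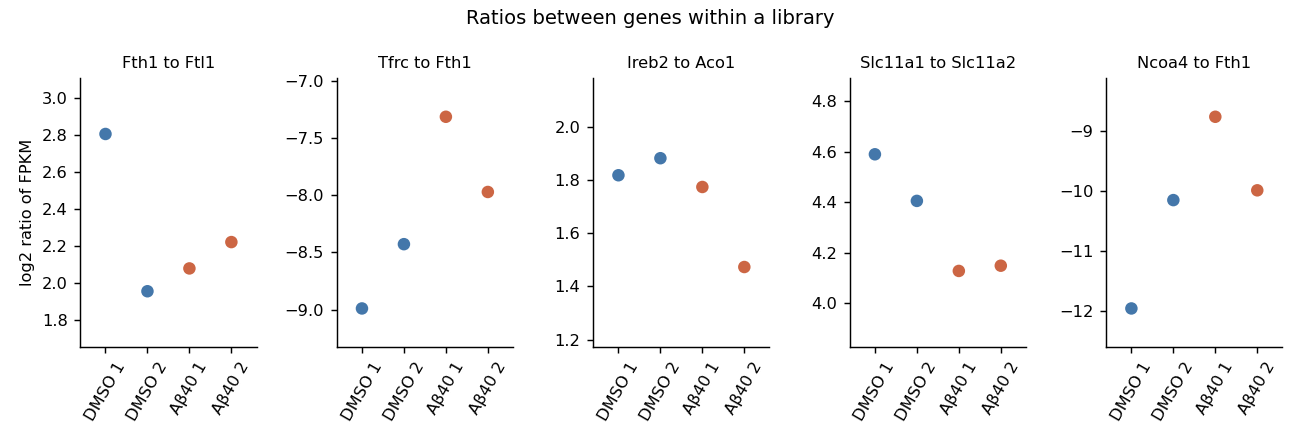
Log2 ratio of FPKM between named pairs of genes in each library (y axes differ in range). Aβ40 libraries lie above DMSO libraries in Tfrc to Fth1 and Ncoa4 to Fth1, below them in Ireb2 to Aco1 and Slc11a1 to Slc11a2, and overlap them in Fth1 to Ftl1; the Ncoa4 ratio was chosen after its values were seen.

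Genes with these letters in a UTR are listed here with their direction, as a description. Nothing is read from it about the sites, since counts of RNA cannot show a change in translation. Fth1, Ftl1 and Slc40a1, with a site in the 5′ UTR, were lower in both Aβ40 libraries. Alas2, a gene of haem synthesis chosen here after its values were seen, held the same letters in its 5′ UTR. It had a positive log2 fold change.
Alas2, 5′ UTR, chromosome X, across an exon junction between 150547458 and 150552150, + strand: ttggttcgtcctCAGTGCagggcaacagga
Alas2, the first enzyme of haem synthesis in red cell precursors, was at 19.0 and 25.4 CPM with DMSO and 42.6 and 28.0 CPM with Aβ40, without overlap, and its log2 fold change was 0.67 (SE 0.26; edgeR quasi-likelihood, adjusted p = 0.367). Bola3, a maturation factor of iron-sulfur proteins, held the letters in a 3′ UTR, as did Tfrc. The log2 fold change was 1.08 for Bola3 and 0.24 for Tfrc, whose groups overlapped. A match describes letters and does not show that a regulatory protein binds there.

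Of 91 other iron genes used from lists drawn up by function, 70 were abundant enough to be tested, and 0 were called higher and 0 lower by the edgeR quasi-likelihood test. At an unadjusted p under 0.05, 3 were higher and 4 lower. That threshold took 6.51% of all genes as higher and 5.72% as lower. DESeq2 called 1 lower and 0 higher, beside 0.292% and 0.893% of the genes to which it gave an adjusted p. The median log2 fold change of the 70 was 0.09, with 40 positive and 30 negative, beside 0.01 for all genes. Among the 70, the groups did not overlap for 17 that were higher and 15 that were lower. Over all genes they did not overlap for 23.2% higher and 21.9% lower, so nothing is read from these counts. The gene DESeq2 called was Slc25a37, mitoferrin 1, which brings iron into mitochondria. Its levels were 171 and 167 CPM with DMSO and 89.7 and 97.6 CPM with Aβ40, tight in both groups and far apart between them. Its log2 fold change was -0.85 (SE 0.16; edgeR quasi-likelihood, adjusted p = 0.126; DESeq2, adjusted p = 0.00427). In edgeR the log2 fold change was -0.84 without DMSO 1, -0.88 without DMSO 2, -0.79 without Aβ40 1 and -0.93 without Aβ40 2.

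In the list that holds Slc25a37, of mitochondrial iron and iron-sulfur cluster genes, 15 of 22 tested were positive, with a median of 0.18. Bola3 was at 4.40 and 5.32 CPM with DMSO and 12.2 and 8.37 CPM with Aβ40, and its log2 fold change of 1.08 (SE 0.30; adjusted p = 0.286 in the edgeR fit) was the largest of the iron genes tested. Hspa9, a mitochondrial chaperone of cluster assembly, was at 0.20 (SE 0.16). The 8 cytosolic assembly genes had a median of 0.11 and lay between -0.25 for Nubp1 and 0.18 for Fam96b. In that list Fam96a, at 112.9 CPM with DMSO and 112.7 with Aβ40, was nearly level in all 4 libraries.

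Haem genes were mixed. Of 9 genes of haem synthesis 4 were positive, with a median of -0.11. Alas1, the first and rate-limiting enzyme outside red cells, was at 381 and 456 CPM with DMSO and 283 and 298 CPM with Aβ40, for a log2 fold change of -0.53 (SE 0.18; adjusted p = 0.337 in the edgeR fit), opposite in sign to its red cell counterpart Alas2. Of 12 genes of haem turnover and transport 5 were positive, with a median of -0.04. Hmox1, haem oxygenase 1, which frees iron from haem, was at 467 and 488 CPM with DMSO and 467 and 377 CPM with Aβ40. Por, the reductase that feeds electrons to it, was at 190 and 208 CPM against 128 and 138 CPM, a log2 fold change of -0.58 (SE 0.17; adjusted p = 0.293), and Lrp1, an endocytic receptor for haem bound to haemopexin, was at -0.63 (SE 0.22).

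Genes that serve ferritin and iron sensing had 3 of 8 positive and a median of -0.08. Bach1, a haem-sensing repressor of ferritin and haem oxygenase genes, was at 229 and 232 CPM with DMSO and 188 and 174 CPM with Aβ40 (log2 fold change -0.35, SE 0.17). Nfe2l2, the gene of NRF2, which activates ferritin genes, was at -0.01 (SE 0.18) and Fbxl5 at -0.15 (SE 0.18). Of 8 uptake genes tested beside Tfrc and Slc11a2, 6 were positive, with a median of 0.12. The most abundant of them, Mcoln1, a lysosomal channel that releases iron, was at 31.9 and 36.0 CPM with DMSO and 24.3 and 27.7 CPM with Aβ40 (log2 fold change -0.38, SE 0.20), and Trf, transferrin, was at 0.07 (SE 0.35). Of 14 genes of export, systemic control and iron binding outside cells 3 were tested, 2 of them positive, with a median of 0.07; Hamp, whose hormone triggers the loss of ferroportin, was too low. Transcripts of the neutrophil granule proteins that bind iron or its microbial carriers were abundant, and their differences were smaller than their standard errors: Lcn2 was at 7990 and 7126 CPM with DMSO and 8536 and 7938 CPM with Aβ40, and Ltf, lactoferrin, had a log2 fold change of 0.07 (SE 0.22).

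**Figure D5:**
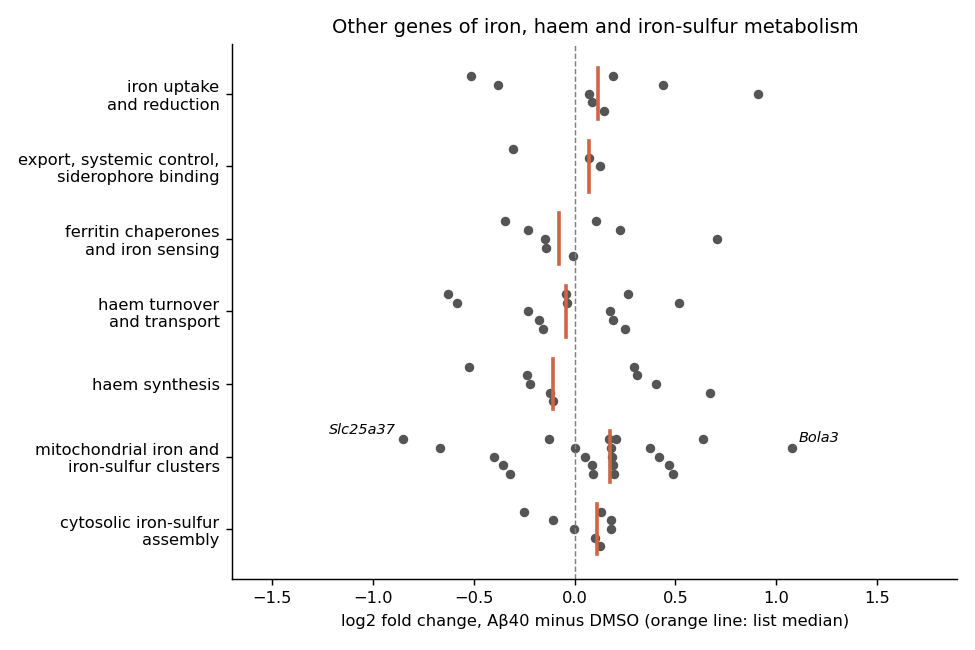
Log2 fold change, Aβ40 minus DMSO (x axis), of the 70 other iron genes tested, by list; each point is a gene, spread vertically for visibility, the orange line is the list median, and the lowest and highest of all are named. Slc25a37 is the lowest at -0.85 and Bola3 the highest at 1.08.

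Genes whose levels followed 3 of the members most closely over the 4 libraries were found by the Euclidean distance of centred log2 CPM. The search covered the 5886 protein-coding genes that averaged 20 CPM or more. With only 4 libraries, close profiles can arise among so many genes without any link between them. No distance expected without a link was computed, so the names are a description. Nearest to Fth1 were Faap20 at a distance of 0.07, Ube2c at 0.17, Bcl6 at 0.22, Spint2 at 0.24 and Sephs2 at 0.24. Slc11a1 was most closely followed by Csf3r, the receptor for granulocyte colony-stimulating factor, at 0.04, by Txnrd1 at 0.04, Bag6 at 0.06, Slc6a6 at 0.08 and Inpp4a at 0.08. Csf3r was at 567, 755, 455 and 412 CPM in DMSO 1 and 2 and Aβ40 1 and 2. For Tfrc they were Impa1 at 0.02, Ndufs1, Rbm7 and Zfp984 at 0.03 and B2m at 0.05. Ftl1 was not among the 5 nearest to Fth1.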

How the data were processed

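RNA sequencing covered 4 libraries, 2 per group. The authors deposited raw read counts per gene and FPKM, 54532 genes each. Per the submitters' processing notes HISAT2 2.0.5, featureCounts 1.5.0-p3 and mm10 were used. Neither the strand setting nor the annotation is given in the sources used here. Reads of antisense partners may thus not be told apart. The genes overlapping Ftl1 and Slc11a2 held at most 8 counts. This does not bound antisense reads, which may have been counted with the members. The deposited FPKM equal counts over gene length and a scaled library size.

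Counts were fitted in R 4.3.3 with edgeR 4.0.16 (filterByExpr, TMM, quasi-likelihood, 2-sided, Benjamini-Hochberg adjustment over 13479 genes, called at an adjusted p under 0.05). All 9 members passed the filter. Standard errors and intervals come from that fit. The code was tested on simulated data. The median-ratio, upper-quartile and library-size scalings, DESeq2 1.42.0, limma-voom (limma 3.58.1), no filter, a mean count of at least 10, a replicate block, leaving out each library, limma on log2(FPKM + 1) or log2(FPKM + 0.1) for genes with at least 1 FPKM in 2 libraries, and added pseudogene rows were alternatives. The members, lists and tests were chosen with earlier results of these data known. Besides the members, the rule named every called gene of a list, or else its 2 most abundant and the 2 with the largest change at a mean of at least 5 CPM. One list symbol (Ndor1) on more than 1 row was not used. Alas2, Fam96a and Hamp also illustrate points chosen after their values were seen. One gene of the lists is not reported here by name.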

Additional observations from a re-analysis of the deposited data

How the results depend on the processing

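Over all genes, 17 were called higher and 0 lower. Counts moved to 104 higher and 34 lower with DESeq2, to 185 and 70 with no low-count filter and to 0 and 0 with limma on log2(FPKM + 1) or log2(FPKM + 0.1), and 1 was lower with library size alone. Leaving out a library gave 0 to 805 higher and 0 to 471 lower, with 0 of either without Aβ40 1 or Aβ40 2; the fit then takes the lone library to vary like the other group, and the cause was not tested. With a replicate block 27 were higher and 0 lower, and no member was called; the libraries share only a number, and the deviations of same-numbered libraries had a correlation of -0.19 over genes. With the numbers crossed, chosen after seeing the data, 445 were higher and 276 lower, among them 3 of the 9 members and 5 other iron genes (3 higher, 2 lower). Fth1, Ftl1, Slc11a1, Slc40a1, Tfrc, Ncoa4 and Aco1 kept their direction in every alternative, and with no filter Fth1 and Ncoa4 were called (adjusted p = 0.00222 and 0.0146). Ireb2 turned to -0.028 with library size alone and lay between -0.23 and 0.36 with 1 library left out, negative without DMSO 1 and without Aβ40 1. Slc11a2 then lay between -0.52 and 0.056, positive without DMSO 2. Depth limits mainly Aco1 and Slc11a2, with 136 to 237 counts a library.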
